A study of Mus musculus with 14 samples.

Results

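Binding of 13 transcription factors at the nuclear genes of the mitochondrial respiratory chain was described in a mouse blood progenitor line. The genes were taken by symbol: every protein-coding gene on the 19 autosomes and chromosome X whose symbol starts with Nduf, Uqcr, Cox4 to Cox8, Atp5 or Sdh. This gave 100 of 21631 protein-coding genes. The rule reads symbols and uses no peak. The study mapped the factors by chromatin immunoprecipitation and sequencing (ChIP-seq), with 1 library and 1 deposited peak list for each of the ETS factors Spi1 (PU.1), Fli1 and Erg, the C/EBP factors Cebpa and Cebpb, the zinc-finger factors Gata2, Gfi1 and Gfi1b, the bHLH factors Tal1 and Lyl1, and Lmo2, Meis1 and Runx1, plus 1 rabbit IgG library that was not analysed here. All libraries came from Hoxb8-FL cells, labelled as multipotent haematopoietic progenitors that resemble lymphoid-primed multipotent progenitors (LMPP). These cells are kept from differentiating by a conditional Hoxb8 protein that needs estradiol, and they grew with estradiol and FLT3 and received no treatment. Fixation lasted 10 min in formaldehyde at 0.4% or 1%, without a record by factor in the sources used here. No RNA was measured, so neither the labelled cell type nor the activity of the genes could be checked against transcript levels.

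The respiratory chain of the inner mitochondrial membrane passes electrons from NADH (complex I) and succinate (complex II) through complexes III and IV to oxygen, and complex V uses the resulting proton gradient to make ATP. Most subunits are encoded in the nucleus, and the genes for complexes I, III, IV and V are split between the nuclear and the mitochondrial genome. Nuclear respiratory factors, ETS proteins of the GABP type and Yy1 are known regulators of the nuclear genes, and none of them was assayed here.

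The 13 lists together held 279958 peaks, from 3217 for Gata2 to 76378 for Spi1, each 400 bp wide. They give positions without scores or read counts, so the depth behind them is unknown and a list's length cannot be read as an amount of binding. With 1 library per factor there was no replicate check, and no p-value was computed. Intervals of shares are 95% binomial by the exact method of Clopper and Pearson and cover counting error over genes only. Each is set beside the same share of all protein-coding genes and beside a share standardised for gene length, in which every member receives the share of all genes in its own length decile. A peak was counted as near a gene when its midpoint lay within 1 kb of the lower or upper boundary, and in the locus when it lay in the gene or within 50 kb of it.

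Most respiratory chain genes had a factor at a boundary. Of the 100 genes, 86 (interval 77.6% to 92.1%) had a peak of at least 1 factor within 1 kb, against 53.5% of all genes and 52.4% after length standardisation. Spi1, an ETS factor of myeloid and lymphoid development, was near 52 of them (background 37.9%). Fli1, an ETS factor of stem cells and megakaryocytes, was near 51 with an interval of 40.8% to 61.1%, against a background of 25.5% and a length-standardised share of 26.0%. These 2 lists covered nearly the same number of members although the Spi1 list held 76378 peaks and the Fli1 list 22034.

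The C/EBP factors of granulocytes and monocytes came next, with Cebpb near 34 members (background 22.8%) and Cebpa near 32 (background 21.0%). Lmo2, an adaptor that binds DNA through partner proteins, was near 33 (background 20.9%). For these 3 lists the interval of the members began above the background. Runx1, a regulator of blood stem cell formation, was near 24 members (background 17.5%) and Erg, an ETS factor of blood stem cells, near 20 (background 13%). Their intervals, 16.0% to 33.6% and 12.7% to 29.2%, included the background.

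The remaining 6 lists touched few members. Gfi1b, a repressor of erythroid and megakaryocyte cells, was near 10 members (background 6.88%), and its paralogue Gfi1 near 7 (background 8.54%). Gata2, a zinc-finger regulator of stem and mast cells, was near 8 members with an interval of 3.52% to 15.2%, against a background of 2.42%. Meis1, a homeodomain partner of Hox proteins, was near 5 (background 3.18%). The bHLH factors Tal1 and Lyl1 were near 3 and 2 members (backgrounds 4.68% and 3.21%). In all 6 but Gata2 the interval included the background. The intervals were not adjusted for the 13 lists.

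**Figure D1:**
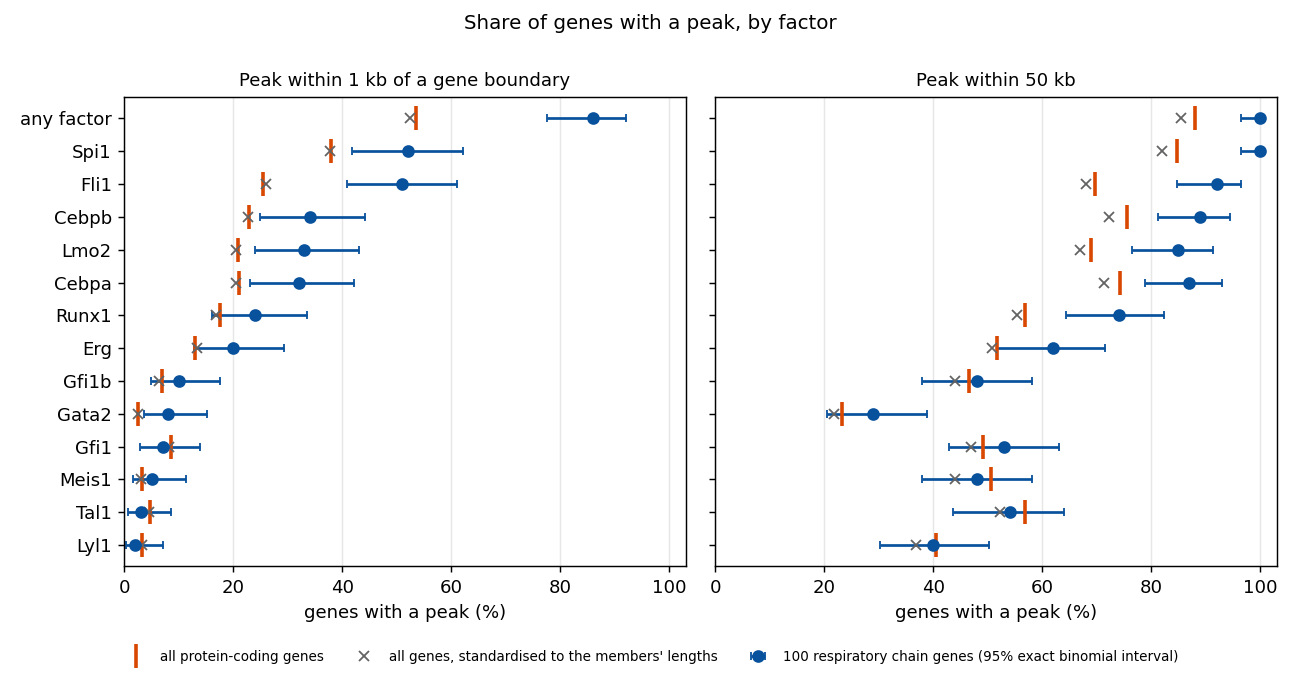
Share of genes with a peak (x axis, %) for each factor and for any factor (y axis), within 1 kb of a gene boundary (left) and within 50 kb (right). Blue points with 95% exact binomial intervals are the 100 respiratory chain genes, orange bars all protein-coding genes and grey crosses the share standardised to the members' lengths; Fli1 near the boundary lies at 51% against 25.5%.

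Counted per gene, the 100 members averaged 2.81 ± 2.25 factors within 1 kb (SD over the genes), with a median of 2 and a range of 0 to 10. All genes had 1.87 ± 2.44, with a median of 1. Few members were without any factor, and few had very many. Genes with 5 or more factors made up 22.0% of the members and 15.8% of all genes, and those with 10 or more 1.0% and 1.05%. Length-standardised genes had 1.85 factors within 1 kb. Over the whole gene with 1 kb either side, members had 3.43 factors, all genes 3.79 and length-standardised genes 2.7. Members were thus below all genes in this wider window, but above length-standardised genes in both windows. Their median length was 7336.5 bp, against 17329 bp for all genes.

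Boundaries shared with a neighbouring gene were common among the members. Another protein-coding gene began or ended within 1 kb of 55 of them, and 90.9% of these 55 had a peak, as did 76.2% of all genes with such a neighbour. Of the 45 members without a close neighbour 80.0% had a peak, against 45.9% of all such genes. The share of the members was above that of all genes in both classes. Standardised for both length and a close neighbour, the background was 61.6% for any factor and 32.8% for Fli1, both under the members' intervals. For Spi1, Cebpb, Cebpa and Lmo2 it rose to 44.3%, 27.8%, 24.6% and 24.8%, inside the intervals of the members (41.8% to 62.1%, 24.8% to 44.2%, 23.0% to 42.1% and 23.9% to 43.1%). A peak near a shared boundary cannot be assigned to either gene from these lists.

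The peaks lay at starts rather than ends. For some genes the RefSeq promoter table gives a start inside the gene boundary. The strand was known for the 82 members in that table, and their upstream gene boundary was taken as the start. Of the 82 members, 68 (82.9%) had a peak within 1 kb of the start, against 48.8% of all genes in the table. At the end, 11 of the 82 (13.4%) had a peak within 1 kb, against 14.1%. Fli1 was at the start of 42 of the 82 (51.2% against 23.9%) and at the end of 2. Around the 82 starts, 326 peaks lay within 5 kb, and 222 of them (68.1%) within 1 kb. At these genes the concentration differed between lists, and it was not counted for genes at large. Within 5 kb, 86.3% of 51 Fli1 peaks, 84.2% of 19 Erg peaks and 83.3% of 30 Lmo2 peaks lay within 1 kb, and 54.8% of 73 Spi1 peaks and 58.1% of 43 Cebpb peaks did. The Fli1 midpoints within 1 kb had a median of -25.5 bp from the start (negative is upstream), with quartiles of -73 and 5.5 bp. Those of Cebpb had wider quartiles, -163 and 237 bp, as the plot of distances from the start shows.

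**Figure D2:**
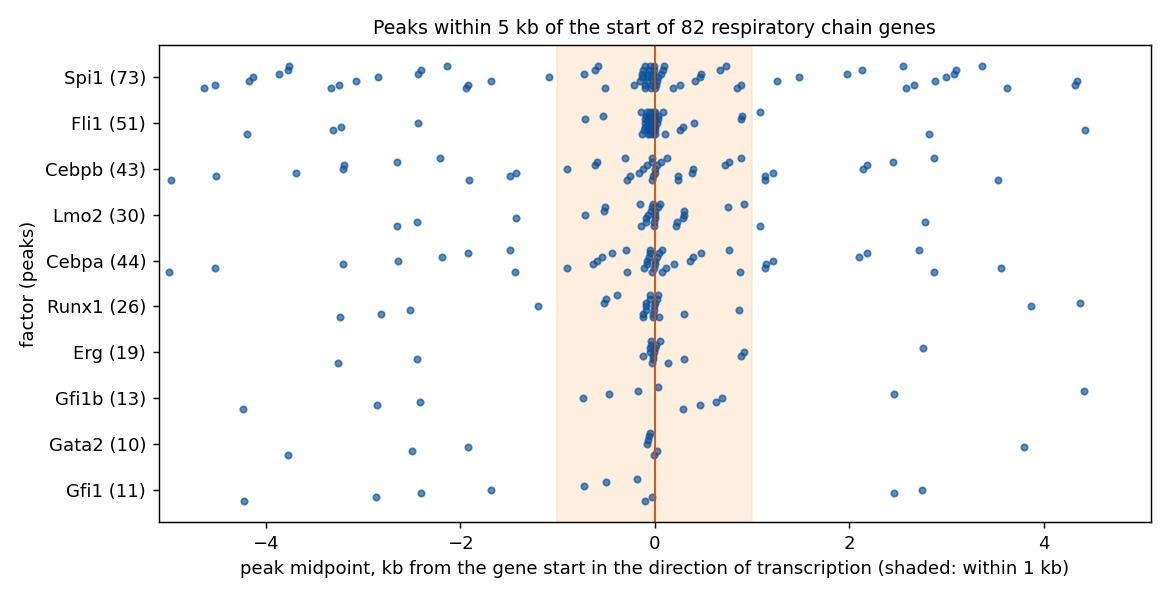
Position of each peak midpoint in kb from the gene start, taken as the upstream gene boundary, in the direction of transcription (x axis). Shown are the factors with 10 or more peaks within 5 kb of the starts of 82 respiratory chain genes (y axis, number of peaks in parentheses). Vertical scatter separates points only. The shaded band is 1 kb either side, where 44 of 51 Fli1 peaks and 40 of 73 Spi1 peaks lie. These shares were not counted for all genes.

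Most of these peaks were shared. The 86 genes had 297 peaks within 1 kb of a boundary, and 40 of them (13.5%) overlapped no peak of another list. Spi1 had the most peaks of that kind (14 of 56, 25%) and Erg none of 20. These shares were not counted over all peaks, so they are not shown to be particular to the members. Of the 20 members with Erg, 19 also had Fli1 (95%, and 96.2% of all genes with Erg). Of the 24 with Runx1, 20 had Fli1 (83.3%, and 69.4% of all genes with Runx1). Cebpa and Cebpb were together near 24 members, which is 75% of the Cebpa genes and 70.6% of the Cebpb genes, below the 81.2% and 74.6% over all genes. Among exact sets of factors the most frequent were no factor (14 members), Fli1 with Spi1 (7) and Spi1 without another factor (7). Of all genes 46.5% had no factor, and the other exact sets were not counted over all genes.

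**Figure D3:**
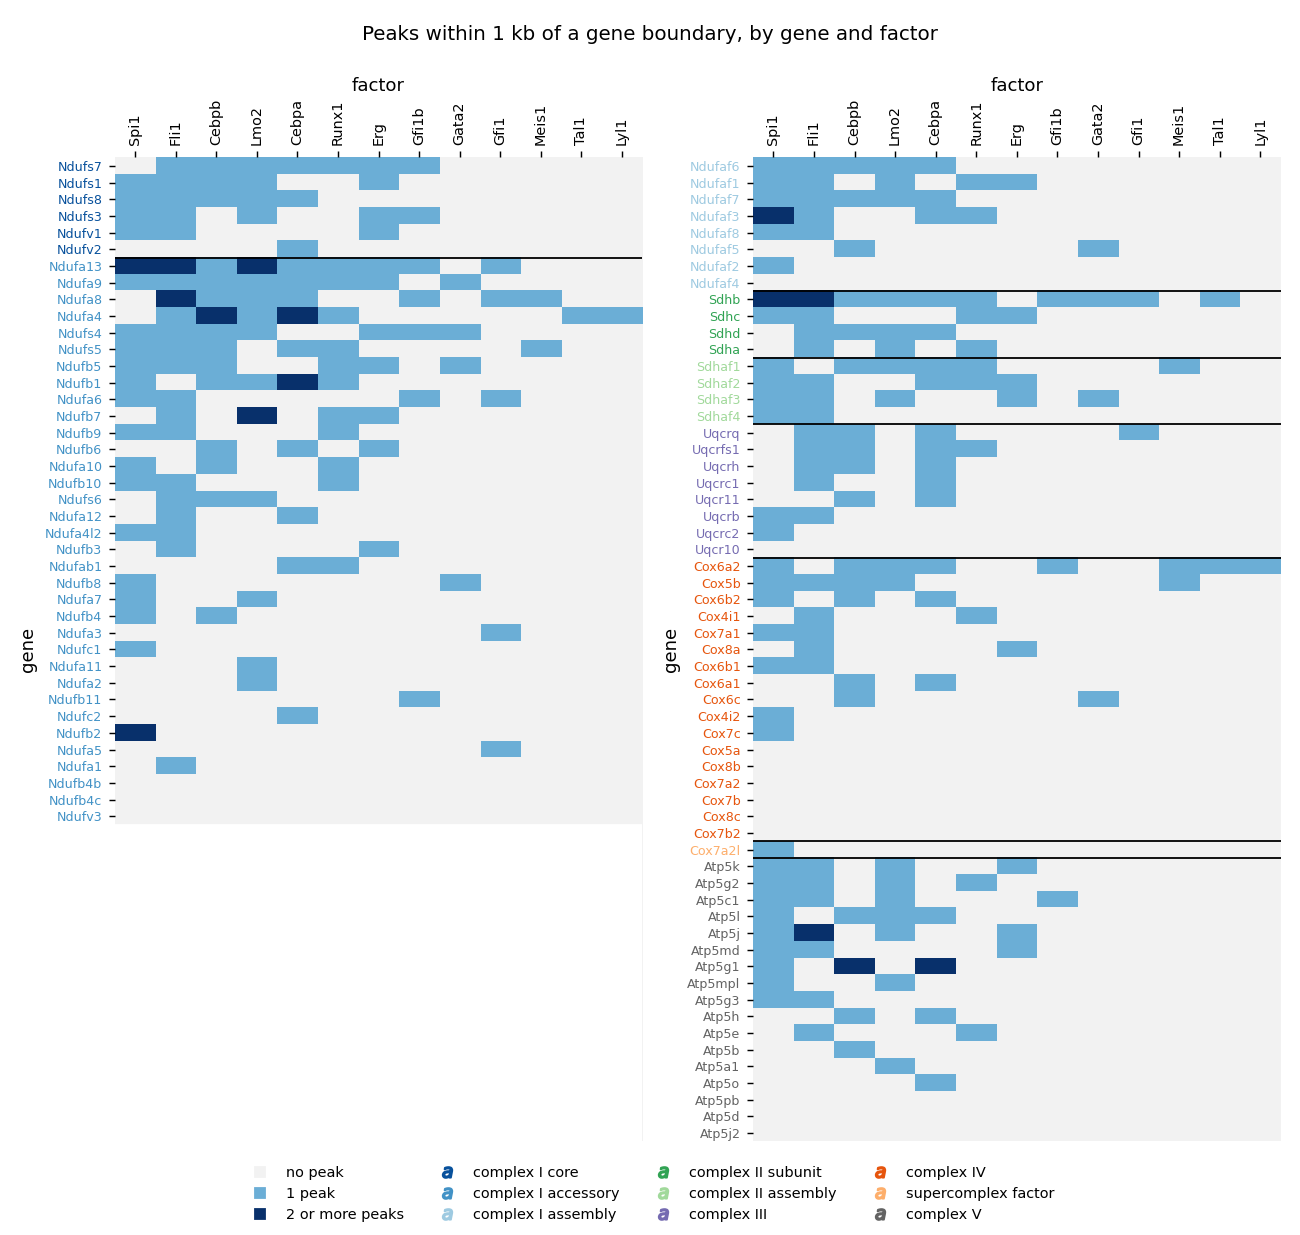
Number of peaks within 1 kb of a gene boundary for 99 of the genes (rows, grouped by complex and role and ordered by number of factors within each) and each factor (columns, ordered by number of genes). Grey is no peak, light blue 1 peak and dark blue 2 or more; the Spi1 and Fli1 columns are filled in 51 and 50 rows, and complex IV holds 6 of the 14 empty rows.

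The starts of 6 genes are shown because they carry the most factors or an ETS match beside a Fli1 peak. The sequences are from RefSeq (GRCm38.p6), 250 bases ending at the base before the annotated start, 5′ to 3′ on the strand of the gene. They lie at chr4:140961021-140961270 on the plus strand (Sdhb), chr6:126849145-126849394 on the minus strand (Ndufa9) and chr13:114388095-114388344 on the minus strand (Ndufs4). The others lie at chr2:119662835-119663084 on the minus strand (Ndufaf1), chr8:83566508-83566757 on the plus strand (Ndufb7) and chr2:174464102-174464351 on the minus strand (Atp5e). Capitals mark matches on either strand to CCGGAAG (ETS), GAGGAAG (PU.1), TTNCNNAA (C/EBP), GCATGCGC (Nrf1) or AAGATGGC (Yy1). Positions count back from the start. In Sdhb the Nrf1 letters begin at -54, in Ndufa9 a C/EBP match begins at -180 and in Ndufs4 a PU.1 match begins at -21. An ETS match begins at -18 in Ndufaf1, at -20 in Ndufb7 and, on the reverse strand, at -102 in Atp5e. Ndufaf1 also has overlapping C/EBP matches from -172 and -171. The first 3 genes were taken by their number of factors and the last 3 after their values were seen.
Sdhb: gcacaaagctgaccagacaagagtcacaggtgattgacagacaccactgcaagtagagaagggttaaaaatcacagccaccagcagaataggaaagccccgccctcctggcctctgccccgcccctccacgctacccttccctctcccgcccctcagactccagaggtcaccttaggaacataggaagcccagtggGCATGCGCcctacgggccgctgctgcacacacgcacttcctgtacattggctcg
Ndufa9: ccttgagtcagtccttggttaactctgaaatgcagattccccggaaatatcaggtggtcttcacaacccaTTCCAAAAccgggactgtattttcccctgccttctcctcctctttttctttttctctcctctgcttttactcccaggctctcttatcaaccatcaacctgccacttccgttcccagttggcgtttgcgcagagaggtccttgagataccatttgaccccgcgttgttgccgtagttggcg
Ndufs4: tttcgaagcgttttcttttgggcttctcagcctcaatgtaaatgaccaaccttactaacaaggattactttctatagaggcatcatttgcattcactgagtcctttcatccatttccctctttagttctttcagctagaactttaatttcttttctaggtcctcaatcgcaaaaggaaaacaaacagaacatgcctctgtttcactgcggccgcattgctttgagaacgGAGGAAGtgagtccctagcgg
Ndufaf1: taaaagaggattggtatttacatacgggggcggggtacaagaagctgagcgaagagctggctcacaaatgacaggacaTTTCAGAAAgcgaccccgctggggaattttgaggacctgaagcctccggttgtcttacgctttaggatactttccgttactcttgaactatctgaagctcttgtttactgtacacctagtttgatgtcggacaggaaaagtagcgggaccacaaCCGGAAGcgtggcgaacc
Ndufb7: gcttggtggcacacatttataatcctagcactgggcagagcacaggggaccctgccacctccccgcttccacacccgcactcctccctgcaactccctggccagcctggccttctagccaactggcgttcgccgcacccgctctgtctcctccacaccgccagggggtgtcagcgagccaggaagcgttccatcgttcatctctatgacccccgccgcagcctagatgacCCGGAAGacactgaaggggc
Atp5e: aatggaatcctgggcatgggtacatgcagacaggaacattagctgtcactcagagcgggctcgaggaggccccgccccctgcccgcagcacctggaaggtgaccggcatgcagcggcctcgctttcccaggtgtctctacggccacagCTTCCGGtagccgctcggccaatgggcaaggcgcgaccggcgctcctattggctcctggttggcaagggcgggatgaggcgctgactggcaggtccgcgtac

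The letters of these starts were compared with the lists over all promoter windows of 300 bases, 87 for the members and 21045 for all genes. A midpoint of any factor fell in 63 member windows (72.4%, against 33.2% of all windows). The ETS letters CCGGAAG were in 25.3% of member windows and 11.7% of all windows, the Nrf1 letters in 13.8% and 3.54%, and the Yy1 letters in 12.6% and 3.07%. The ETS letters are of the kind read by ETS proteins, among them Fli1 and Erg. ETS proteins of the GABP type, Nrf1 and Yy1 were not assayed, so the letters do not tell which ETS protein reads them. For the letters of the other assayed factors the shares lay closer together or were lower in the members. The PU.1 letters were in 8.05% of member windows and 13.3% of all windows. For Runx (TGNGGT) the shares were 39.1% and 44.1%. The E-box CAGNTG, read by Tal1 and Lyl1, was in 41.4% and 48.6%. GATA and Gfi1 letters were rare in both sets. For GATA the letters AGATAA were in 6.9% and 9.68%. The Gfi1 letters AATCNNNGC were in 6.9% and 10.8%. All 5 were thus less frequent in the members than in promoters at large. Shares were slightly higher in member windows for C/EBP (40.2% and 37.4%). The Meis letters TGACAG were in 23.0% and 18.3%. Windows with the Sp1 letters GGGCGG made up 46.0% and 46.7%. The ETS and PU.1 searches share the letters GGAAG, and no window was corrected for its base composition. Member windows had a median GC content of 58.7% and 20 CpG, against 56.7% and 13 in all windows.

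Fli1 midpoints and ETS letters fell together. Of 38 member windows with a Fli1 midpoint 15 held CCGGAAG (39.5%), and of 49 without it 7 did (14.3%). Over all windows the shares were 44.6% and 5.81%. The 26 ETS matches of the members had a median position of -14 bp from the start in the promoter table. The Fli1 distances given above were taken from gene boundaries instead. Of 28 member windows with a Spi1 midpoint 4 held the PU.1 letters (14.3%, against 26.9% of all windows with a Spi1 midpoint) and 8 the ETS letters (28.6% against 28.0%). Windows with Cebpa or Cebpb held the C/EBP letters in 9 of 12 and 7 of 10 cases. In member windows without the factor the shares were 34.7% and 36.4%, and in all windows with Cebpa or Cebpb they were 48.3% and 49.7%. None of the 7 member windows with a Gata2 midpoint held AGATAA, and 7.52% of all windows with a Gata2 midpoint did.

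Complex I, the entry point for NADH, was described by core subunits, accessory subunits and assembly factors. The 7 nuclear core subunits, which carry the flavin and iron-sulphur clusters, all had a peak and averaged 4.43 ± 1.9 factors (SD over genes). Their length-standardised background was 2.08 factors. A close neighbour was found for 85.7% of them, and all genes with such a neighbour averaged 2.9 factors. Fli1 was near 6 of them, and Erg, Lmo2 and Spi1 near 5 each. Ndufs7, a core iron-sulphur subunit, had the most, with 1 peak each of Cebpa, Cebpb, Erg, Fli1, Gfi1b, Lmo2 and Runx1 and none of Spi1. These peaks formed 1 merged region of 631 bp at chr10:80248975-80249605, centred 185 bp inside the upstream gene boundary. The start in the promoter table lies farther downstream than this centre. Ndufs1 had Cebpb, Erg, Fli1, Lmo2 and Spi1. Ndufv2, a flavoprotein subunit, was the exception among the core genes with a Cebpa peak alone.

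The 34 accessory subunit genes averaged 2.97 ± 2.48 factors, and 31 had a peak. They held 6 of the 10 members with the most factors, counting Ndufa4, which was grouped by its symbol and not with complex IV. Ndufa13, also known as Grim19, had 9 factors and 12 peaks in 2 groups, 837 bp downstream and 725 bp upstream of its gene boundary. The downstream group held Cebpa, Cebpb, Erg, Fli1, Lmo2, Runx1 and Spi1, and the upstream group Fli1, Gfi1, Gfi1b, Lmo2 and Spi1. The upstream group lies inside Tssk6, a kinase gene of the testis that overlaps Ndufa13, and Yjefn3 is a close neighbour at the other boundary. Ndufa9 had 8 factors in 1 region of 505 bp centred 25 bp upstream of the start, over the sequence printed for it above: Cebpa, Cebpb, Erg, Fli1, Gata2, Lmo2, Runx1 and Spi1. No other protein-coding gene lay within 1 kb.

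Ndufs4, a subunit whose loss causes a mouse model of Leigh syndrome, had 7 factors in a region of 480 bp centred 14 bp downstream of the start, namely Cebpb, Erg, Fli1, Gata2, Gfi1b, Lmo2 and Spi1. Ndufs5 had 6 in 503 bp centred 112 bp upstream, with Meis1 among them. In these genes the factors lay in a single merged region. Ndufa8 differed, with 6 of its 7 factors (Cebpa, Cebpb, Fli1, Gfi1, Gfi1b and Lmo2) in a region 627 bp beyond its end, a Meis1 peak alone 30 bp before the end and a second Fli1 peak 52 bp upstream of the start. Ndufa4, named for complex I although its product is known from complex IV, had 10 peaks of 7 factors. They included Lyl1 and Tal1 in a region 572 bp upstream of the start, and this region lies inside the neighbouring Phf14, at its lower end. The 3 accessory genes with no peak were Ndufb4b, Ndufb4c and Ndufv3.

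The 8 genes of complex I assembly factors averaged 3.0 ± 2.0 factors. Spi1 was near 6 and Fli1 near 5, and Gfi1, Gfi1b, Lyl1, Meis1 and Tal1 near none. Ndufaf1, Ndufaf6 and Ndufaf7 had 5 factors each. Ndufaf4 had none within 1 kb and 2 Spi1 peaks in its whole locus.

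Complex II, succinate dehydrogenase, is the member of the chain encoded by nuclear genes alone, and all 4 of its subunit genes had Fli1. Sdhb, the iron-sulphur subunit, had the most factors of all 100 genes, with 10 factors and 12 peaks: 2 of Fli1, 2 of Spi1 and 1 each of Cebpa, Cebpb, Gata2, Gfi1, Gfi1b, Lmo2, Runx1 and Tal1. Erg, Lyl1 and Meis1 were absent. The peaks formed 2 groups that shared only Fli1 and Spi1. At the start, Fli1, Gfi1, Gfi1b, Runx1 and Spi1 covered 607 bp centred 73 bp upstream (chr4:140960895-140961501), over the sequence printed above. At 675 bp before the end, Cebpa, Cebpb, Fli1, Gata2, Lmo2, Spi1 and Tal1 covered 438 bp (chr4:140978305-140978742).

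The other 3 subunit genes each had a single region at or near a boundary. Sdhc, a membrane anchor, had Erg, Fli1, Runx1 and Spi1 centred 42 bp inside its upper boundary. Sdhd, the second anchor, had Cebpa, Cebpb, Fli1 and Lmo2 centred 3 bp from its start, where Timm8b is a close neighbour. Sdha, the flavoprotein, had Fli1, Lmo2 and Runx1 centred 77 bp downstream of its start. Of the 4 assembly factor genes, Sdhaf1 had 6 factors spread over 4 separate regions, Sdhaf2 and Sdhaf3 had 5 each and Sdhaf4 had 2, and Spi1 was near all 4. The 4 subunit genes averaged 5.25 ± 3.2 factors and the 4 assembly genes 4.5 ± 1.73.

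The 8 Uqcr genes of complex III, which passes electrons to cytochrome c, averaged 2.25 ± 1.39 factors, and 7 had a peak. Cebpa was near 5, Fli1 near 5 and Cebpb near 4, while Spi1 was near 2 and Erg and Lmo2 near none. Uqcrfs1, the Rieske iron-sulphur protein, had Cebpa, Cebpb, Fli1 and Runx1 centred 25 bp upstream of its start. Uqcrq had Cebpa, Cebpb, Fli1 and Gfi1. Uqcr10 had no peak.

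The 17 genes of complex IV, cytochrome c oxidase, had the lowest mean of the 5 complexes (1.76 ± 2.11 factors), and 11 had a peak (64.7%). Their length-standardised background of 1.57 factors was also the lowest of the 5. A close neighbour was found for 35.3% of them, against 55.0% of all members. Spi1 was near 7, and Fli1 and Cebpb near 5 each. Cox5b, a zinc-binding subunit, had Cebpb, Fli1, Lmo2, Meis1 and Spi1. Cox4i1, the widely expressed form of subunit 4, had Fli1 and Runx1.

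The isoforms of complex IV restricted to certain tissues did not follow 1 pattern. Cox6a2, the heart and skeletal muscle form, had 8 factors in a region of 780 bp centred 379 bp below its lower boundary: Cebpa, Cebpb, Gfi1b, Lmo2, Lyl1, Meis1, Spi1 and Tal1, and no Fli1, Erg or Runx1. This region lies at the upper end of Itgad, an integrin gene of leukocytes that overlaps Cox6a2, and inside its boundaries. It holds 1 of the 3 Tal1 peaks and 1 of the 2 Lyl1 peaks near members. Cox6b2, the testis form, had Cebpa, Cebpb and Spi1 in a region 775 bp beyond its end. Cox7a1, the muscle form, had Fli1 and Spi1 at its start, and Cox4i2, a lung form, had Spi1 near its upper boundary. Cox8b, Cox7b2 and Cox8c had no peak within 1 kb. Of the 7 isoforms 4 had a peak and the mean was 2.0 ± 2.89 factors.

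The 17 Atp5 genes of complex V, the ATP synthase, averaged 2.18 ± 1.51 factors with a maximum of 4, and 14 had a peak. Spi1 was near 9, and Fli1 and Lmo2 near 7 each. Gata2, Gfi1, Lyl1, Meis1 and Tal1 were near none. Atp5j, coupling factor 6, had Erg, Fli1, Lmo2 and Spi1 and shares its boundary with Gabpa, the gene of an ETS factor known to regulate respiratory genes. Atp5c1, the gamma subunit of the rotor, had Fli1, Gfi1b, Lmo2 and Spi1. Atp5b, the catalytic beta subunit, had a Cebpb peak alone and Atp5a1, the alpha subunit, an Lmo2 peak alone. Atp5pb, Atp5d and Atp5j2 had none.

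**Figure D4:**
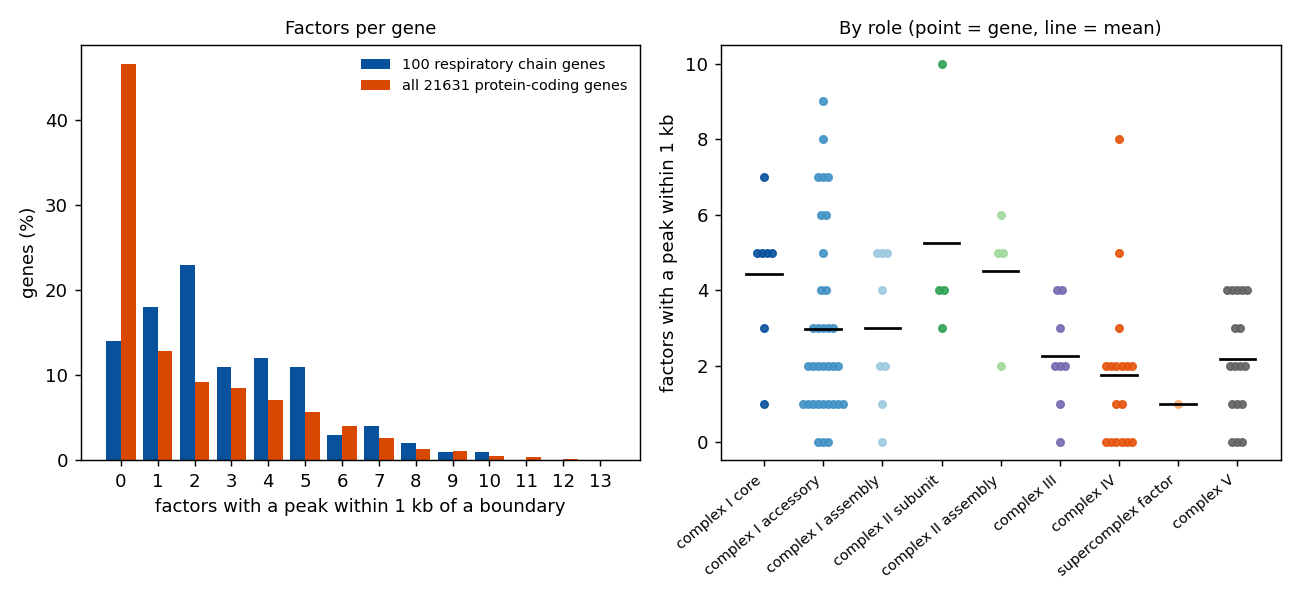
Left, share of genes (y axis, %) by number of factors with a peak within 1 kb (x axis), for the 100 respiratory chain genes (blue) and all 21631 protein-coding genes (orange). Right, number of factors for each gene (points) by role, with the mean as a line; Sdhb has 10, Ndufa13 9 and Cox6a2 8, and 14 genes have none.

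The 14 members without a peak within 1 kb were Atp5d, Atp5j2, Atp5pb, Cox5a, Cox7a2, Cox7b, Cox7b2, Cox8b, Cox8c, Ndufaf4, Ndufb4b, Ndufb4c, Ndufv3 and Uqcr10. For 3 of them the gene boundary is not the start that RefSeq gives in the promoter table. In the promoter windows at these internal starts, Cox5a had a Gata2 and a Runx1 midpoint, Cox7a2 an Erg midpoint and Atp5d a Spi1 midpoint. Further midpoints lay outside these windows but within 1 kb of the internal start. They were of Cebpa, Cebpb and Spi1 in Cox5a and of Cebpa, Erg, Fli1, Gfi1 and Lmo2 in Atp5d. For Cox7a2 such further midpoints were not listed. Counted within 1 kb of any start in that table, 86.6% of the 82 members had a peak, against 52.3% of all genes.

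The Gata2, Meis1, Tal1 and Lyl1 lists were each near 8 or fewer members. Of their shares only that of Gata2 had an interval above the background (3.52% to 15.2% against 2.42%). Those of Meis1, Tal1 and Lyl1 included the background. Gata2 was near Sdhb, Ndufa9, Ndufs4, Ndufb5, Sdhaf3, Ndufb8, Cox6c and Ndufaf5, at the end of Sdhb and within 100 bp of a boundary in the others. Ndufb8 had Gata2 and Spi1 within 1 kb, and Cox6c and Ndufaf5 had Gata2 and Cebpb. Of these 8 Gata2 peaks 7 stood in the first 50% of the lines of the Gata2 list, whose order is not explained in the sources used here. Over all genes the Gata2 share was 1.65% with those lines and 2.42% with all lines. Meis1 was near Cox6a2, Ndufa8, Ndufs5, Sdhaf1 and Cox5b, and its peaks at Ndufa8 and Sdhaf1 touched no peak of another list. Tal1 was near Sdhb, Cox6a2 and Ndufa4 and Lyl1 near Cox6a2 and Ndufa4, in each case in a region of 7 or 8 factors.

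In the wider locus every member had a peak. The Spi1 list by itself reached all 100 genes (background 84.7%), so any factor did too (background 88.0%). Fli1 was in 92 loci (background 69.7%), Cebpb in 89 (background 75.5%), Cebpa in 87 (background 74.3%), Lmo2 in 85 (background 69.0%) and Runx1 in 74 (background 56.8%). The intervals of these lists began above the background. Erg was in 62 (interval 51.7% to 71.5%, background 51.7%).

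For the other 6 lists the intervals of the members included the background. That of Gata2, 20.4% to 38.9%, also included its length-standardised share of 21.7%. Tal1 was in 54 loci (background 56.8%), Gfi1 in 53 (background 49.1%), Gfi1b in 48 (background 46.5%), Meis1 in 48 (background 50.6%), Lyl1 in 40 (background 40.5%) and Gata2 in 29 (background 23.2%). Tal1, Meis1 and Lyl1 were below all genes but above the length-standardised shares of 52.2%, 44.0% and 36.8%. Members had a mean of 8.61 ± 3.04 factors per locus with a median of 9, and all genes 7.49 ± 4.29 with a median of 9.

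All 13 factors were present in the loci of 7 of the 100 members and of 1296 of all 21631 genes, which are nearly equal shares. Sdhb had 102 peaks, with 17 of Spi1, 15 of Lmo2, 14 of Cebpb, 12 of Cebpa, 9 each of Fli1 and Tal1, 5 each of Gfi1, Meis1 and Runx1, 4 of Gfi1b, 3 of Lyl1 and 2 each of Erg and Gata2. Cox4i1 had 72, with 16 of Spi1 and 9 of Lmo2. Atp5pb had 66 and Cox8b, a muscle and brown fat isoform, 56, although neither had a peak within 1 kb of a boundary. Cox5a had 47 peaks and Ndufa8 36. At the other extreme Cox7c and Cox7b2 had 1 Spi1 peak each in the whole locus, and Ndufaf4 had 2.

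Regions shared by 10 or more factors lay within 50 kb of 16 members (16.0%), against 17.3% of all genes and 14.8% after length standardisation. There were 18 such regions, all without Gata2, which has the shortest list. How many of the 2831 such regions in the genome lack Gata2 was not counted. Only the region of Ndufa12 lay inside a member, with 12 factors at chr10:94211697-94212167. That of Sdhb (12 factors) lay 4.45 kb above the gene and 2.57 kb from Atp13a2. The 2 regions of Ndufs8 lay in Tcirg1, a proton pump gene, and in Aldh3b1, and the 2 of Cox4i2 lay in Bcl2l1, a survival gene, and 4.33 kb from Id1. That of Cox8b lay in Sirt3 and that of Ndufs7 in Dazap1. The regions of Cox4i1 and Atp5g3 had the member itself as nearest gene, at 12.1 and 40.4 kb. Those of Ndufs1, Atp5k, Ndufb9, Ndufaf8, Atp5pb, Cox5a and Cox7a2 were nearest to, or in, Ino80d, Pde6b, Mtss1, Slc38a10, Tmigd3, Scamp2 and Filip1.

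Other genes of the pathway, outside the symbol rule, were counted in the same way. Of 34 assembly genes for the complexes, 32 had a peak within 1 kb (94.1%) with a median of 4 factors and a mean of 3.97, above the members' median of 2 and mean of 2.81. Fli1 was near 25 of them and Spi1 near 24. Cox19, a copper chaperone for complex IV, had 11 factors, and Atpaf2 and Nubpl had none. Of the electron carriers, Cycs (cytochrome c) had Cebpa, Cebpb and Lmo2, and Cyc1 (cytochrome c1) had Runx1. Of 12 genes for regulators of respiration, 10 had a peak (83.3%). Yy1 had 6 factors, Esrra 5 and Gabpa, through the boundary it shares with Atp5j, 4. Tfam, which packages mitochondrial DNA, had Erg, Fli1 and Lmo2, and Gabpb1 and Ppargc1a had none.

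Other sets of genes that serve every cell had shares of the same order. A peak within 1 kb was found at 81.2% of 101 cytosolic ribosomal protein genes, 89.7% of 78 mitochondrial ribosomal protein genes and 87.5% of 40 proteasome genes, with means of 3.19 ± 2.34, 3.44 ± 2.08 and 2.95 ± 2.16 factors. Fli1 was near 59.4%, 57.7% and 50% of them and 51.0% of the members. Erg was near 33.7%, 33.3% and 25% and 20% of the members, and Runx1 near 25.7%, 38.5% and 32.5% and 24.0%. Gata2 was near 6.93%, 5.13% and 10.0% and 8.0% of the members. None of these differences was tested.

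**Figure D5:**
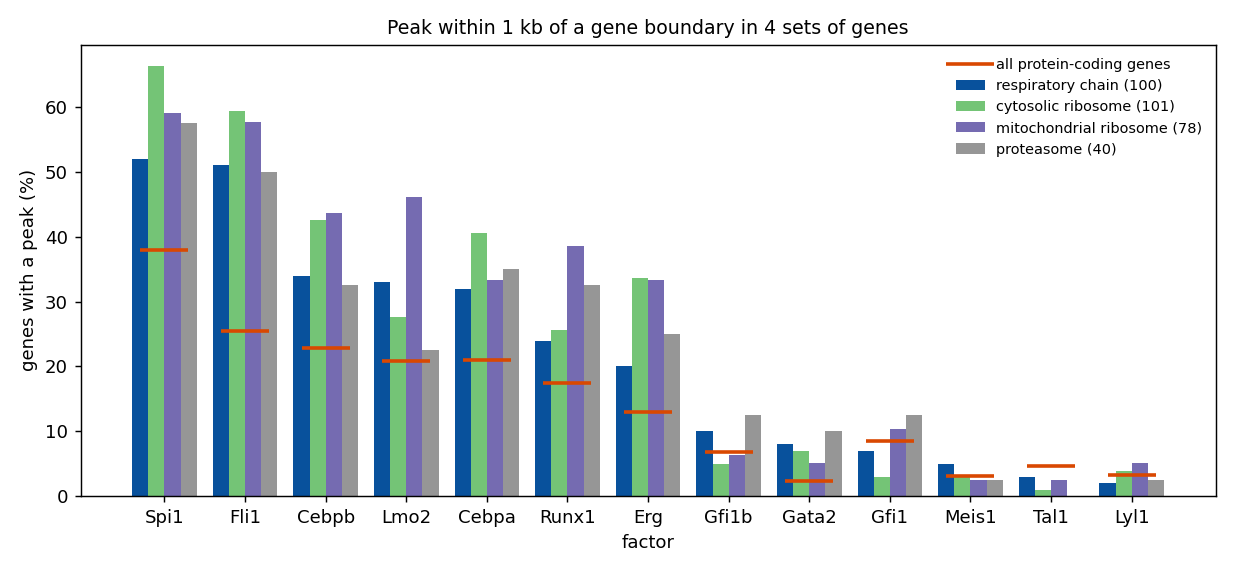
Share of genes with a peak within 1 kb of a boundary (y axis, %) for each factor (x axis) in the respiratory chain genes and 3 other sets (bars, number of genes in parentheses), with all protein-coding genes as orange lines. Fli1 is near 50% to 59.4% of the genes in all 4 sets, against 25.5% of all genes.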

How the data were processed

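Binding positions of 13 factors came from ChIP-seq of 1 cell line, with 1 library per factor. The submitters' processing notes name MACS2, Bowtie2 and bedtools and the build mm10 (GRCm38). Their versions, roles and thresholds, and any use of the IgG library, are unstated there. The deposited lists hold the chromosome, start and end of 400 bp peaks and no score or count, so depth and precision per library are unknown. The 3 lines on the mitochondrial genome were left out of the counts of nuclear genes.

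Gene boundaries, and for 82 of the 100 members the strand and promoter windows of 300 bases, came from RefSeq tables of GRCm38.p6. Midpoints were counted with pandas 2.3.3, intervals with scipy 1.17.1 (Python 3.11.15), and the counting was tested on simulated data. Regions merged peaks that touched or overlapped by 1 bp. Members, lists, motifs and settings were chosen with earlier results of these data known.

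The rule for genes described one by one took the 10 members with the most factors within 1 kb, the 5 with the most within 50 kb, the complex II subunits, the tissue-restricted isoforms, members with a region of 10 or more factors, and all members of a factor with 5 or fewer. It set promoters for up to 6 of the first 10; only the first 3 followed it, and stretches overlapping annotated genes by more than 30 bases were not printed. 1 gene taken by the rule is not reported here, and its row is left out of the plot of peaks by gene and factor. Other genes named were chosen after their values were seen. Alternatives changed the windows, the boundary, the lines, the lists and the members.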

Additional observations from a re-analysis of the deposited data

How the results depend on the processing

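With 1 list per factor and no depth, the values describe these lists only. A peak near a boundary shared by neighbouring genes belongs to either, and starts inside a gene are missed where a boundary stands for the start. No paired analysis was possible because each factor had 1 library and no groups of samples were compared. The share of members with a peak within 1 kb (86.0%) was 92.0% over the whole gene with 1 kb (background 72.0%), lay between 79.0% and 90% over the other windows, lists, starts and members tried, and fell to 13.4% at ends only (background 14.1%) and 60.0% with the first 50% of lines (background 36.9%). The mean of 2.81 factors was 2.2 at 0.5 kb, 3.24 at 2 kb and 1.38 with the first 50% of lines. Over the whole gene with 1 kb it was 3.43 (background 3.79, length-standardised 2.7). At ends only it was 0.366 (background 0.348, length-standardised 0.396). Without the Spi1 list it was 2.29. Without the Fli1 list, an alternative chosen after seeing the data, it was 2.3. The mean of 8.61 factors within 50 kb was 5.43 within 10 kb, 10.1 within 100 kb, 6.28 with the first 50% of lines and 7.61 without the Spi1 list. Of 104 values of single factors 70 moved by less than their counting interval and 34 by more.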

Other observations

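Outside the counts of nuclear genes, 3 peaks lay on the mitochondrial genome, which encodes other subunits of the same complexes. Cebpa had 1 at positions 2610 to 3009 and Cebpb 1 at 2609 to 3008, both over mt-Rnr2, a leucine tRNA gene and ND1, a complex I subunit gene. Cebpb had 1 more at 11805 to 12204, in ND5, also of complex I. The other 11 lists had none.

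Of 19 annotated pseudogenes with symbols of the same families, 2 had a peak within 1 kb of a boundary. The share of all pseudogenes was not counted, and the genes around these 2 were not examined. Atp5pb-ps had 11 factors, more than any protein-coding member, namely all but Gata2 and Meis1. Atp5pb itself, on another chromosome, had no peak within 1 kb. Uqcrh-ps1 had a Gfi1 peak.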
